A study of Mus musculus with 2 samples.

Results

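Cell cycle transcripts were followed in mouse splenic regulatory T cells (Tregs) through 49 genes chosen by name: 19 genes of S phase, 27 genes of G2 and mitosis (G2/M) and 3 G1 cyclins, out of 28692 genes in the deposited matrices. A gene counted as measured with 10 or more unique molecular identifiers (UMIs, 1 per captured transcript) over both libraries, which 48 of the 49 reached. The exception was Bub1, a spindle checkpoint kinase, with 6 UMIs in the PPARg-low library and 1 in the PPARg-negative library. The study profiled CD4 Tregs from spleens of male mice of strain B6 Pparg-Tdt.Foxp3-Gfp, 8 weeks old, in which reporters mark expression of the nuclear receptor gene Pparg and of Foxp3, the transcription factor that defines Tregs. Cells of 2 or 3 spleens were pooled, sorted as PPARg-negative or PPARg-low by the labels, and encapsulated for droplet sequencing of transcript 3′ ends. Both groups carry both reporters and no treatment is named. Each group is 1 library, so a difference between the groups and a difference between the libraries cannot be told apart, no p-value is given, and every interval covers counting error only.

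After cells over 10% mitochondrial UMIs or under 200 genes were left out, the PPARg-low library held 1619 cells (median 1517 UMIs) and the PPARg-negative library 2633 cells (median 2171 UMIs). All 10 markers listed for the check of the cell type, of Tregs and of T cells at large, were detected in both libraries, and 1596 of 1619 and 2430 of 2633 cells had 5 or more of their UMIs. The libraries differed in the share of ribosome-poor cells, those with under 20% of UMIs from ribosomal protein genes: 58.7% of the PPARg-low library (951 cells) against 23.3% of the PPARg-negative one (614 cells). Over the 10716 measured genes the median level, in UMIs scaled to a common library total (CPM), was 1.23-fold higher in PPARg-low. In the comparisons below a gene is called higher or lower when its CPM ratio reached 1.5-fold and the exact 95% interval of the ratio lay on the same side of 1. By that rule 24% of all measured genes were higher in PPARg-low and 4.14% were lower. The second library's files carry the tag pos where the label says low, and the label's word is used throughout.

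A dividing cell first loads the MCM helicase onto replication origins, then copies its DNA in S phase and separates the copies in mitosis. Most genes for these steps are transcribed in waves. In a resting cell, Rb family pocket proteins with E2F factors and the DREAM complex hold S and G2/M genes off. D-type cyclins with their kinases lift the block when growth signals arrive. Most splenic Tregs rest, a minority divides, and a Treg sample's cell cycle transcripts can therefore come from few cells.

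Elements of this control of S and G2/M genes are found in promoters of the members. So that the elements can be seen, 6 promoters are printed: a pair of S genes followed by 4 G2/M genes. Each line gives the 150 bases before the RefSeq start (build GRCm38.p6), 5′ to 3′ in the direction of the gene, with 3 kinds of element in capitals on either strand. These are E2F sites (searched as TTCCCGC as well as the variant TTGGCGC, and likewise as TTGCCGC as well as the variant TTCGCGC), the CCAAT box bound by NF-Y (CCAAT, which reads as ATTGG on the other strand) and the cell cycle homology region, CHR, bound by DREAM and MuvB (TTTGAA, which reads as TTCAAA on the other strand, as well as the form TTCGAA). Adjoining matches run together in the capitals.
Mcm6, chr1:128359706-128359855, minus strand: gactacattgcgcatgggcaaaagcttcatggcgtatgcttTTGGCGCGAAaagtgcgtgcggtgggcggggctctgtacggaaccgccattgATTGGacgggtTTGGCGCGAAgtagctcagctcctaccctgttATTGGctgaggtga
Rrm1, chr7:102441545-102441694, plus strand: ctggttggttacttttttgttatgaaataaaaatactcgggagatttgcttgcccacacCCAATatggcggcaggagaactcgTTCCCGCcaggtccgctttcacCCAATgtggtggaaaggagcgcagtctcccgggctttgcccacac
Mki67, chr7:135716380-135716529, minus strand: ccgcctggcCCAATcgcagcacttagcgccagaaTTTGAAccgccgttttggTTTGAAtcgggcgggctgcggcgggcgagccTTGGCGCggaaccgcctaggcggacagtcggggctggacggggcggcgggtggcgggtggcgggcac
Top2a, chr11:99024190-99024339, minus strand: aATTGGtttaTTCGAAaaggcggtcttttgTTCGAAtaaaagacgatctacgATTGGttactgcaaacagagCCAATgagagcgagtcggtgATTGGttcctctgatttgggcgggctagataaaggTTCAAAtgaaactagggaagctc
Cdk1, chr10:69352913-69353062, minus strand: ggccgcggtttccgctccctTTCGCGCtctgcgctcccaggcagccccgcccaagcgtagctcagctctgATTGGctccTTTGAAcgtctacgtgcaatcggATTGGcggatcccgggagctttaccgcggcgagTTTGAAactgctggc
Ube2c, chr2:164769779-164769928, plus strand: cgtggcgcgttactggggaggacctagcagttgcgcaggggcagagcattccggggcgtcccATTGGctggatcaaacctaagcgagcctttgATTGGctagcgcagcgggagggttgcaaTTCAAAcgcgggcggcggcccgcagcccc
Mcm6 has a run of overlapping E2F matches at 2 places and no CHR, and Ube2c has a CHR close to its start, downstream of 2 CCAAT boxes. In windows from 250 bases before to 50 bases after the start, an E2F element was found for 9 of 16 S genes with a RefSeq window (56.3%) and for 4 of 22 G2/M genes (18.2%), beside 20.2% of measured genes and 10.9% of all genes of the table. A CHR was found for 3 of 16 S genes (18.8%) and 16 of 22 G2/M genes (72.7%), beside 16.3% and 21.7%. A CCAAT box was found for 9 of 16 S genes and 19 of 22 G2/M genes (86.4%), beside 43.3% and 41.1%. CCAAT and CHR stood in the same window for 2 of 16 S genes and 16 of 22 G2/M genes, beside 6.82% and 8.61%. These letters are a description of the windows and not a measure of binding.

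Of 19 S genes, 12 were called higher in PPARg-low and 0 lower (63.2%, beside the 24% of all measured genes), and the median ratio was 1.62-fold, from 1.07-fold for Fen1 to 4.07-fold for Cdc6. Their UMIs summed to 2379 in PPARg-low (820 CPM) and 2774 in PPARg-negative (470 CPM), a ratio of 1.74 (95% interval 1.65 to 1.84). Set against the median of all measured genes, which was itself above 1, 7 of 19 S genes stayed past the limit, with 12.3% of all genes higher and 8.53% lower by that rule.

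The MCM2-7 ring, the helicase that opens the double strand, had subunits with different ratios. Mcm6 had 293 UMIs in 219 PPARg-low cells and 209 UMIs in 184 PPARg-negative cells, or 101 against 35.4 CPM, a ratio of 2.85 (2.38 to 3.42). Mcm3 had 106 and 113 UMIs, a ratio of 1.91 (1.45 to 2.51), and Mcm4 had 111 and 144 UMIs, a ratio of 1.57 (1.21 to 2.02). The other 3 subunits lay under the 1.5-fold limit: Mcm2 with 98 and 135 UMIs at 1.48, Mcm7 with 119 and 169 UMIs at 1.43, and Mcm5 with 84 and 127 UMIs at 1.34. The interval of Mcm6 overlapped that of Mcm3 and lay above those of the other 4 subunits. Cdc6 and Cdt1, which load the ring onto origins, had 14 against 7 UMIs (ratio 4.07, 1.54 to 11.9) and 62 against 78 UMIs (ratio 1.62, 1.14 to 2.28), and both were called higher. Gins2, a subunit of the complex that activates the helicase, had 14 and 13 UMIs, too few to place it on either side (ratio 2.19, 0.954 to 5.06).

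Enzymes that supply deoxynucleotides held 4 of the 6 largest S ratios. Ribonucleotide reductase makes deoxynucleotides from ribonucleotides, and its regulatory subunit Rrm2 had 110 UMIs in 36 PPARg-low cells and 62 UMIs in 34 PPARg-negative cells, or 37.9 against 10.5 CPM, a ratio of 3.61 (2.62 to 5.01). Its large subunit Rrm1 had 68 UMIs against 58, a ratio of 2.38 (1.65 to 3.44). Thymidylate synthase, Tyms, had 153 UMIs in 120 cells against 105 UMIs in 93 cells, or 52.7 against 17.8 CPM, a ratio of 2.96 (2.30 to 3.83). Thymidine kinase, Tk1, had 52 UMIs in 28 cells against 28 UMIs in 24 cells, or 17.9 against 4.75 CPM, a ratio of 3.77 (2.34 to 6.21). Dut, which clears dUTP, had 239 and 350 UMIs and stayed under the limit at 1.39 (1.17 to 1.64).

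Among S genes of the fork and of repair, Pcna, the sliding clamp of the polymerases, had 254 UMIs in 182 PPARg-low cells and 341 UMIs in 303 PPARg-negative cells, or 87.5 against 57.8 CPM, a ratio of 1.51 (1.28 to 1.79). Slbp, which binds the stem-loop of replication histone messages, had 410 and 536 UMIs, a ratio of 1.56 (1.36 to 1.77). Ung, which removes uracil from DNA, had 38 and 45 UMIs at 1.72 (1.08 to 2.70). These 3 were called higher, close to the 1.5-fold limit for Pcna and Slbp. Tipin, a fork protection factor, had 79 and 111 UMIs at 1.45, and Fen1, the flap nuclease of lagging strand synthesis, had 75 and 143 UMIs at 1.07 (0.795 to 1.42). Neither was called.

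**Figure D1:**
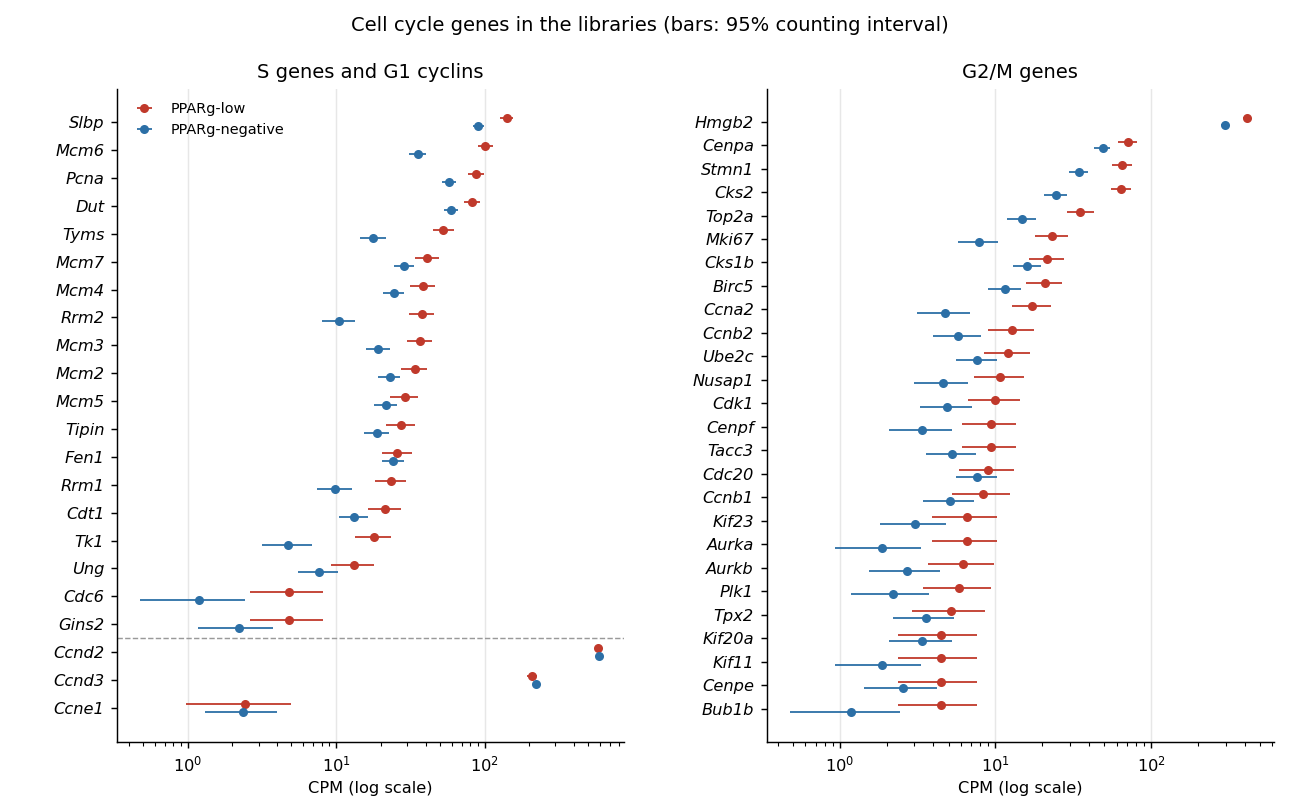
Level of each of the 48 measured cell cycle genes in the PPARg-low (red) and PPARg-negative (blue) library, in CPM on a log axis, with S genes and, under the dashed line, G1 cyclins on the left and G2/M genes on the right; bars are exact 95% counting intervals and 1 library stands behind each point. Every S and G2/M point lies higher in PPARg-low, while the points of Ccnd2 and Ccnd3 lie side by side.

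Of 26 measured G2/M genes, 16 were called higher in PPARg-low and 0 lower (61.5%, beside 24% higher and 4.14% lower among all measured genes), with a median ratio of 2.09-fold, beside 1.23-fold for all genes, and a range from 1.17-fold for Cdc20 to 3.77-fold for Bub1b. Their UMIs summed to 2500 (862 CPM) against 3097 (525 CPM), a ratio of 1.64 (1.56 to 1.73). Hmgb2 alone gave 1197 and 1747 of these UMIs. Without Cks1b, Cks2, Stmn1 and Hmgb2 the summed ratio was 1.94 (1.76 to 2.13). Relative to the median of all measured genes, 10 of 26 were past the limit, beside 12.3% of all genes.

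Mki67, the coat of mitotic chromosomes and the usual stain for dividing cells, had 67 UMIs in 43 PPARg-low cells and 46 UMIs in 30 PPARg-negative cells, or 23.1 against 7.80 CPM, a ratio of 2.96 (2.0 to 4.41). Top2a, the topoisomerase that untangles sister chromatids, had 102 UMIs in 57 cells against 87 UMIs in 39 cells, or 35.2 against 14.8 CPM, a ratio of 2.38 (1.77 to 3.21). Both were higher in PPARg-low. Few cells carried either gene in either library.

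Mitotic entry is driven by Cdk1 with cyclins A and B. Ccna2 (cyclin A2) had 50 UMIs in 25 PPARg-low cells and 28 UMIs in 9 PPARg-negative cells, a ratio of 3.63 (2.24 to 5.99). Ccnb2 had 37 and 34 UMIs at 2.21 (1.35 to 3.63), and Cdk1 had 29 and 29 UMIs at 2.03 (1.17 to 3.52). Ccnb1 had 24 and 30 UMIs and an interval that included 1 (0.910 to 2.88). Of the mitotic kinases, Aurka had 19 and 11 UMIs (ratio 3.51), Aurkb 18 and 16 (2.29) and Plk1 17 and 13 (2.66), and all 3 were called higher. The small Cdk1-binding subunits parted: Cks2 had 186 and 144 UMIs at 2.63 (2.1 to 3.29), while Cks1b had 62 and 94 UMIs at 1.34 (0.957 to 1.87).

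Centromere, spindle and exit genes were divided between the called and the uncalled. Cenpf, a kinetochore protein, had 27 and 20 UMIs at 2.74, Birc5 (survivin, of the chromosomal passenger complex) had 60 and 68 at 1.79, and Bub1b, a spindle checkpoint protein, had 13 and 7 at 3.77. Nusap1, which bundles spindle microtubules, had 31 and 27 at 2.33, Kif23, a motor of cytokinesis, had 19 and 18 at 2.15, and Tacc3, a spindle protein, had 27 and 31 at 1.77. These 6 were called higher. Cenpa, the histone H3 variant of the centromere, had 206 and 287 UMIs at 1.46 (1.21 to 1.75), just under the limit. Ube2c and Cdc20, which work with the anaphase-promoting complex, had 35 and 45 UMIs at 1.58 (0.986 to 2.51) and 26 and 45 UMIs at 1.17 (0.696 to 1.95). Cenpe, Tpx2, Kif11 and Kif20a, motors and spindle factors with 11 to 21 UMIs in either library, had intervals that included 1. Stmn1, a microtubule destabilizer, had 188 UMIs in 59 cells against 202 UMIs in 103 cells, a ratio of 1.89 (1.54 to 2.32), and was the last of the 16. Hmgb2, a chromatin protein, had 1197 and 1747 UMIs, 412.5 against 296.2 CPM, and stayed under the limit at 1.39 (1.29 to 1.5).

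G1 cyclins did not share this difference. Ccnd2 (cyclin D2) had 1676 UMIs in 857 PPARg-low cells and 3493 UMIs in 1579 PPARg-negative cells, or 577.6 against 592.3 CPM, a ratio of 0.975 with an interval of 0.919 to 1.03. Ccnd3, with 609 and 1317 UMIs, stood at 0.94 (0.852 to 1.04), and Ccne1 (cyclin E1), which acts at the entry to S phase, had 7 and 14 UMIs and stood at 1.02 (0.347 to 2.69). For Ccnd2 and Ccnd3 the intervals leave out a difference of 1.5-fold in either direction, while for Ccne1 they do not. Set against the median of all measured genes, Ccnd2 stood at 0.792 and Ccnd3 at 0.763.

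How far the UMIs lay in a few cells depended on the list and on which of its genes were counted. Over all 27 G2/M genes, 50% of the UMIs came from 51 of 1619 PPARg-low cells (3.15%) and 167 of 2633 PPARg-negative cells (6.34%), and 48.2% and 50.4% of cells had none. Over all 19 S genes, 50% came from 128 (7.91%) and 369 (14.0%) cells, and 42.9% and 44.2% of cells had none. The top 1% of cells held 39.4% and 34.4% of all G2/M UMIs and 29.6% and 13.7% of all S UMIs.

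Each list was then taken again without a few members. Not all of the removed genes were widely detected: Hmgb2 and Slbp were found in 35.2% and 19.6% of PPARg-low cells, but Stmn1 and Cks1b in 3.64% and 2.47%. Cenpa and Mcm6, which were kept, were found in 10.75% and 13.5%. The shorter lists therefore still hold broadly expressed genes, and the S list lost Slbp alone. Without Cks1b, Cks2, Stmn1 and Hmgb2, 50% of the G2/M UMIs came from 16 PPARg-low cells (0.988%) and 13 PPARg-negative cells (0.494%), 78.3% and 84.1% of cells had none, and the top 1% of cells held 50.4% and 54.2%. The highest single cell held 67 of 867 such UMIs in PPARg-low and 93 of 910 in PPARg-negative. Without Slbp, 50% of the S UMIs came from 97 (5.99%) and 330 (12.5%) cells, and the top 1% of cells held 33.1% and 15.3%. Ccnd2 had 50% of its UMIs in 217 (13.4%) and 396 (15.0%) cells, and for all UMIs of the libraries the same share took 438 (27.1%) and 821 (31.2%) cells. With each pair of lists the G2/M UMIs lay in fewer cells than the S UMIs in both libraries, and the S UMIs lay in a smaller share of cells in PPARg-low than in PPARg-negative.

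**Figure D2:**
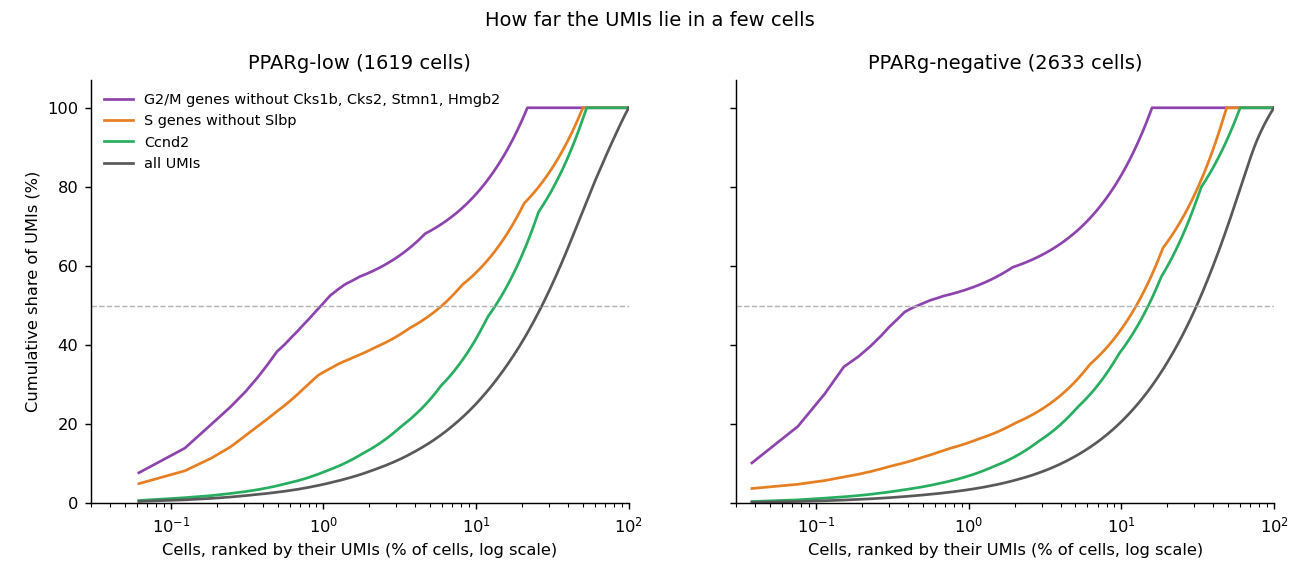
Cumulative share of UMIs (%) against the share of cells (%, log axis), with cells ranked from the most UMIs down, for G2/M genes without Cks1b, Cks2, Stmn1 and Hmgb2, S genes without Slbp, Ccnd2 and all UMIs in the 1619 PPARg-low and 2633 PPARg-negative cells; the dashed line marks 50%. The curve of the shortened G2/M list reaches 50% at 0.988% and 0.494% of cells, and the S curve rises earlier in PPARg-low than in PPARg-negative.

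Cells in cycle were picked by these genes. A cell was S-rich with 5 or more UMIs from at least 3 S genes (without Slbp), G2/M-rich with 5 or more UMIs from at least 3 G2/M genes (without the 4 named above), and cycling with either. PPARg-low held 40 cycling cells of 1619 (2.47%, exact interval 1.77 to 3.35%) and PPARg-negative 34 of 2633 (1.29%, 0.896 to 1.8%), and these cells held 7.18% and 3.20% of all UMIs. S-rich cells numbered 35 (2.16%, 1.51 to 2.99%) and 30 (1.14%, 0.770 to 1.62%). G2/M-rich cells numbered 21 (1.30%, 0.805 to 1.98%) and 14 (0.532%, 0.291 to 0.891%). Of these, 16 PPARg-low and 10 PPARg-negative cells were both S-rich and G2/M-rich. The intervals of the libraries overlapped for each of these classes, for all cycling cells only between 1.77% and 1.8%.

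The S limit cut through a continuous range and the G2/M limit did not. In PPARg-low 24 cells had 4 S UMIs and 9 cells had 5, and in PPARg-negative 23 had 4 and 10 had 5, so the number of S-rich cells moves with the limit. For the G2/M genes 1 cell in each library had 4 UMIs, while 15 and 10 cells had over 10. Cycling cells were deep, with a median of 3903.5 and 4663 UMIs, against 1475 and 2161 in the other cells. After each cell was thinned to 750 UMIs, with a limit of 3 UMIs from 2 genes, S-rich cells made up 26 of 1381 cells in PPARg-low (1.88%, 1.23 to 2.75%) and 12 of 2394 in PPARg-negative (0.501%, 0.259 to 0.874%), intervals that did not overlap. G2/M-rich cells made up 11 (0.797%, 0.398 to 1.42%) and 11 (0.459%, 0.230 to 0.821%), intervals that did. Thinning left out 238 and 239 shallower cells. None of the cycling cells was among the 11 and 8 cells that Scrublet marked as doublets, and 12 and 4 further cells met the cycling rule but exceeded the mitochondrial limit. Of the 5 barcodes that both libraries hold, 1 belonged to a cycling cell.

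**Figure D3:**
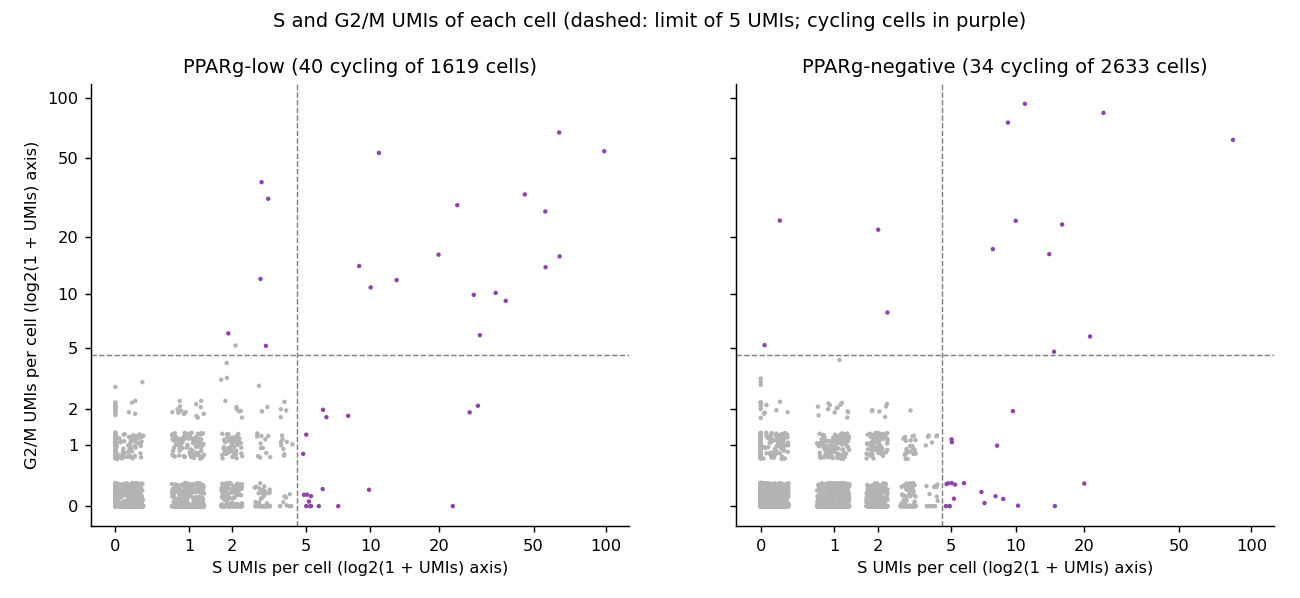
S UMIs (without Slbp) against G2/M UMIs (without Cks1b, Cks2, Stmn1 and Hmgb2) of every kept cell in both libraries, each axis on a log2(1 + UMIs) scale with a small random offset; dashed lines mark the limit of 5 UMIs and purple points are the 40 and 34 cycling cells. Cells with many G2/M UMIs stand apart from the main cloud, while S UMIs run up to the limit without a gap.

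The share of a gene's UMIs that lay in cycling cells was then taken with the class set anew without that gene, so that a gene could not pick its own cells. Over genes with 10 or more UMIs in a library, the median share was 62.7% in PPARg-low and 57.8% in PPARg-negative for G2/M genes, 38.7% and 12.9% for S genes, and 6.67% and 3.15% for all genes. In percent, the medians of the libraries lay close together for G2/M genes and far apart for S genes. The median over all genes was higher in PPARg-low too, where cycling cells held 7.18% of all UMIs against 3.20%. Ccna2 had 78.0% and 96.4% of its UMIs there, Birc5 86.7% and 72.1%, and Mki67 58.2% and 52.2%. Cenpa was the G2/M gene with the smallest share, 14.1% and 14.6%. Among S genes Rrm2 had 84.6% and 56.5%, and Tk1 80.8% and 28.6%. Cdc6 had all of its 14 UMIs in PPARg-low there. Slbp had 16.1% and 7.09%, and Cdt1 33.9% and 1.28%. Ccnd2, at 4.59% and 3.24%, and Ccnd3, at 7.55% and 2.51%, stood near the share of all genes.

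**Figure D4:**
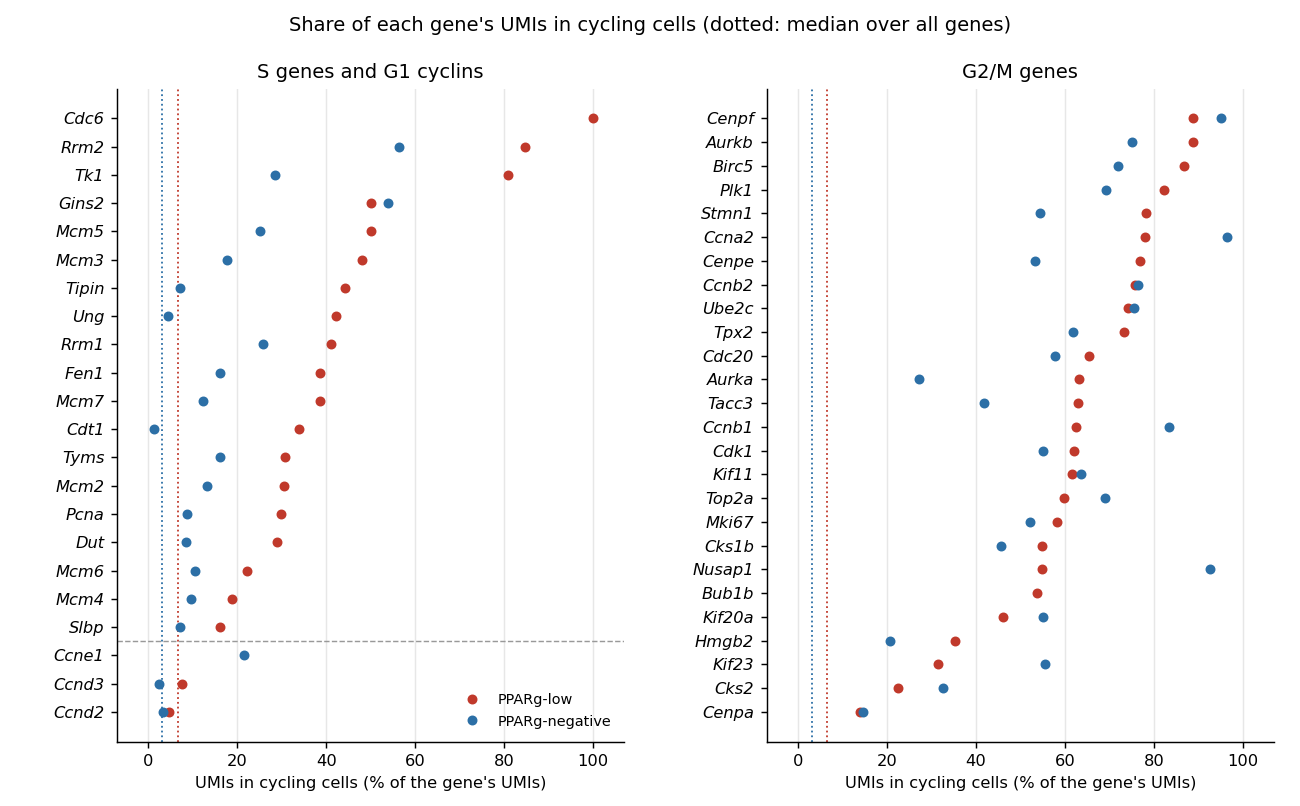
Share of each gene's UMIs that lay in cycling cells (%), with the class of cells set without that gene, in PPARg-low (red) and PPARg-negative (blue); only values from 10 or more UMIs are drawn, and dotted lines are the medians over all genes, 6.67% and 3.15%. S genes drawn for both libraries lie higher in PPARg-low, except Gins2 (50% and 53.85%). Most G2/M genes lie high in both, and Ccnd2 and Ccnd3 sit at the dotted lines.

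Cycling cells were then left out of both libraries. Since they were picked by UMIs of these genes, fewer UMIs and fewer calls were built into this step. Of 18 S genes still measured, 3 were higher and 0 lower (Mcm6 at 2.5, Tyms at 2.49 and Rrm1 at 1.92), the median ratio was 1.20-fold and that of all genes 1.23-fold, with 24% of all genes higher and 4.13% lower. Summed S UMIs gave a ratio of 1.36 (1.28 to 1.45). Rrm2 went from 3.61 to 1.26 and Tk1 from 3.77 to 1.06. Summed G2/M UMIs gave a ratio of 1.41 (1.31 to 1.51), with Hmgb2 giving 775 of 1370 and 1383 of 2064 UMIs. Without Cks1b, Cks2, Stmn1 and Hmgb2 the summed ratio was 1.84 (1.60 to 2.11), beside 1.94 in all kept cells. Of 20 G2/M genes still measured, 8 were higher and 0 lower, with a median of 1.72-fold. Among these, Mki67 stood at 2.70 (1.49 to 4.95), Top2a at 3.34 (2.0 to 5.69), Cks2 at 3.15 (2.42 to 4.11) and Cenpa at 1.51 (1.23 to 1.84). Others rested on few UMIs in the other cells. Nusap1 had 14 against 2 (14.8, 3.41 to 134.5), Ccnb1 9 against 5 (3.82, 1.15 to 14.5) and Kif23 13 against 8 (3.44, 1.32 to 9.59). Ccna2 had 11 UMIs against 1 in these cells, a ratio of 23.3 with an interval of 3.39 to 1003.5. Stmn1 turned to 0.945 (0.637 to 1.38). Of cells outside the cycling class, 1.71% in PPARg-low and 0.770% in PPARg-negative had an Mki67 UMI, at median depths of 1475 and 2161 UMIs. Whether free RNA in the droplets contributed to these low shares was not tested.

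Within cycling cells the gene groups parted. Of 19 S genes 12 were higher in PPARg-low cycling cells and 0 lower, with a median of 2.08-fold, while of 26 G2/M genes 0 were higher and 0 lower, with a median of 1.01-fold. Over the 4672 genes measured in these cells 6.76% were higher, 2.53% were lower and the median was 1.11-fold. S UMIs stood at 4101.7 CPM in the 40 PPARg-low cells and 2138.3 CPM in the 34 PPARg-negative cells, and G2/M UMIs at 5421.0 and 5467.4 CPM. Tk1 had 42 against 8 UMIs (ratio 4.76, 2.21 to 11.7), Mcm6 82 against 30 (2.48, 1.61 to 3.90) and Pcna 85 against 37 (2.08, 1.40 to 3.15). Cdt1, whose protein is degraded as S phase begins, had 21 UMIs in 15 of these PPARg-low cells and 1 UMI in PPARg-negative (ratio 19.0, 3.06 to 787.2). Top2a, with 61 and 61 UMIs (0.906, 0.625 to 1.31), and Hmgb2, with 422 and 364 (1.05, 0.911 to 1.21), are examples of G2/M genes whose intervals included 1. Ccnd2 was lower in PPARg-low cycling cells, 77 against 113 UMIs (0.618, 0.456 to 0.832). Without the cell of most UMIs in each library, 14 of 19 S genes were higher, and 0 of 25 G2/M genes were called. The cells were chosen by UMIs of the same genes, so these values describe the picked cells and test nothing, and cells of 1 pool are not replicates.

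In UMIs summed over cells, the G2/M ratio lay above 1 in ribosome-rich and below 1 in ribosome-poor cells. The ratio intervals treat UMIs of 1 cell as independent. Among ribosome-poor cells only 13 in PPARg-low and 11 in PPARg-negative were G2/M-rich, and the intervals of these shares overlapped. In ribosome-rich cells 12 of 19 S genes (median 1.77-fold) and 18 of 25 G2/M genes (median 2.80-fold) were higher in PPARg-low and 0 lower, where 17.3% of all genes were higher and 3.38% lower. In ribosome-poor cells 5 of 18 S genes were higher (median 1.48-fold), and 0 of 24 G2/M genes were higher while 7 were lower (median 0.680-fold), where 5.73% of all genes were higher and 4.91% lower. The 7 were Top2a, Birc5, Ube2c, Aurkb, Nusap1, Cks1b and Stmn1. Top2a had 37 against 31 UMIs in ribosome-rich cells (ratio 3.58) and 65 against 56 UMIs in ribosome-poor cells (ratio 0.660). Ube2c had 22 against 18 (3.67) and 13 against 27 (0.274). Summed G2/M UMIs gave ratios of 1.99 (1.87 to 2.13) and 0.675 (0.616 to 0.741). The S genes Mcm6, at 2.63 and 2.18, and Tyms, at 3.03 and 2.05, were higher in both kinds of cell.

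For the share of G2/M-rich cells the intervals of the libraries lay apart in ribosome-rich cells. Overlap of separate intervals, as in other comparisons here, does not show that shares are equal. It was 8 of 668 (1.20%, 0.518 to 2.35%) in PPARg-low and 3 of 2019 (0.149%, 0.0307 to 0.434%) in PPARg-negative there. In ribosome-poor cells it was 13 of 951 (1.37%, 0.730 to 2.33%) and 11 of 614 (1.79%, 0.898 to 3.18%), with intervals that overlapped. Cycling cells made up 3.14% (1.96 to 4.77%) and 0.991% (0.606 to 1.53%) of ribosome-rich cells, and 2.0% (1.21 to 3.10%) and 2.28% (1.25 to 3.80%) of ribosome-poor cells. With cycling cells left out, 5 of 17 S and 6 of 17 G2/M genes were higher and 0 lower in ribosome-rich cells (16.8% of all genes higher, 3.36% lower). In ribosome-poor cells 2 of 16 S and 0 of 8 G2/M genes were higher and 0 lower (5.55% and 5.03%). The G2/M median there was 1.28-fold over 8 genes, 7 of them above 1, where 24 genes were measured with cycling cells included. The cells left out were picked by these genes, so fewer UMIs, fewer measured genes and fewer calls were built in. The medians with and without them cover different sets of genes and cannot be set against each other. Which cells the lower G2/M level came from was not tested. What sets a cell's ribosomal share was not tested.

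**Figure D5:**
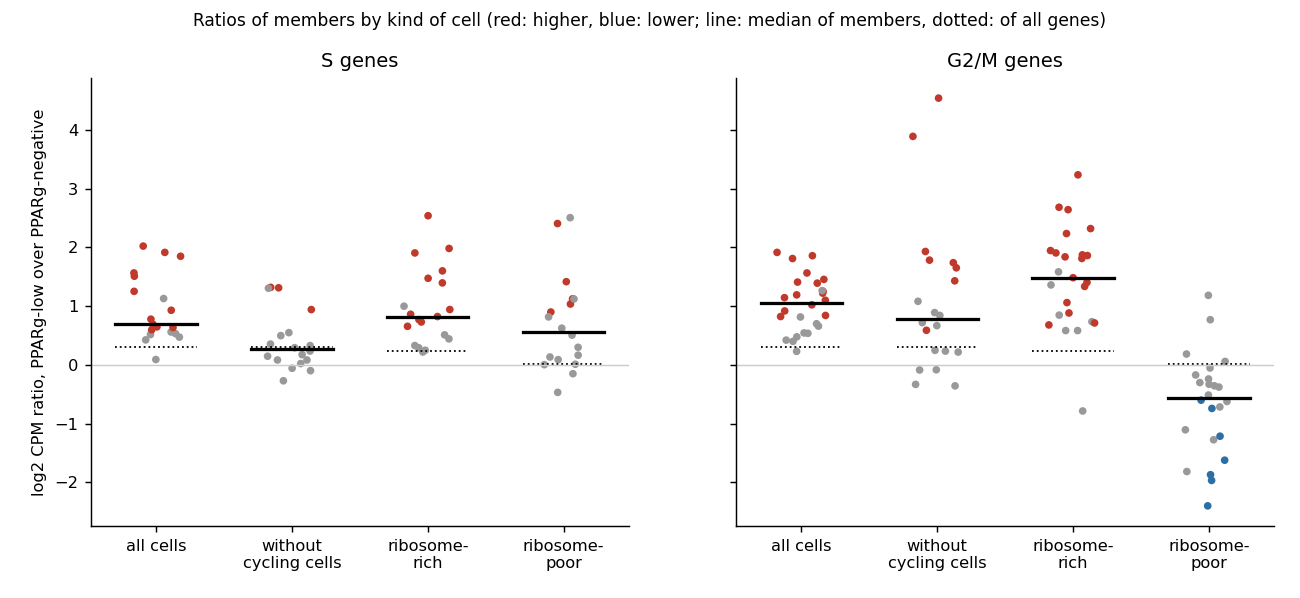
log2 CPM ratio of each measured S gene (left) and G2/M gene (right), PPARg-low over PPARg-negative, in all kept cells, without cycling cells, in ribosome-rich cells alone and in ribosome-poor cells alone; red points were called higher, blue lower and grey neither, solid lines are medians of the members and dotted lines medians of all genes. The G2/M median lies above 0 in ribosome-rich cells and below 0 in ribosome-poor cells, while the S median is above 0 in both.

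Further genes of the same pathways are read beside the 24% of all measured genes that were higher, the 4.14% that were lower and their median of 1.23-fold. Of 25 measured other S genes 11 were higher and 0 lower (median 1.62-fold), and without cycling cells 5 of 21 were higher. Among them were Lig1 (DNA ligase) at 2.42, Hells, a chromatin remodeller, at 2.17, Gmnn (geminin, which binds Cdt1) at 1.92 and Ccne2 (cyclin E2), with 10 against 4 UMIs, at 5.08. Of 35 measured other G2/M genes 12 were higher and 0 lower (median 1.69-fold), nearer to the background than the G2/M members, and without cycling cells 5 of 20 were higher. The 12 included Racgap1, of the cytokinesis complex, at 2.5, Rangap1, of the nuclear transport machinery, at 1.93, and the kinetochore genes Nuf2, with 19 against 6 UMIs at 6.44, and Ttk, with 9 against 3 UMIs at 6.10. Of 12 measured histone genes 6 were higher and 0 lower (median 1.90-fold), and without cycling cells 3 of 10 were higher. H2afz, a histone variant made outside S phase too, had 8812 UMIs against 6163, a ratio of 2.91 (2.81 to 3.0), and remained at 2.90 without cycling cells. Hist1h2ap, a replication histone, had 160 and 157 UMIs (2.07, 1.65 to 2.60) and stood at 4.08 among ribosome-rich and at 0.361 among ribosome-poor cells.

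For regulators of the entry into cycle the shares of genes called higher lay near the 24% of all measured genes, so the counts show nothing about these lists, and single genes are given as values. Of 4 measured G1 kinases and partners 1 was higher: Cdk6, which binds D-type cyclins, had 210 and 198 UMIs at 2.16 (1.77 to 2.63), whereas its relative Cdk4 had 294 and 565 UMIs at 1.06 (0.915 to 1.22). Of 11 measured brakes 3 were higher and 2 lower. The Cdk inhibitor genes Cdkn2c (p18), with 157 and 104 UMIs at 3.07 (2.38 to 3.97), and Cdkn1a (p21), with 25 and 16 UMIs at 3.18 (1.63 to 6.37), were higher, as was the pocket protein gene Rbl2 (p130) at 2.22 (1.76 to 2.79). Cdkn2d (p19), an inhibitor of the same kinases as Cdkn2c, was lower with 143 against 607 UMIs, a ratio of 0.479 (0.396 to 0.575), and so was the antiproliferative gene Tob1, with 62 against 207 UMIs at 0.609 (0.451 to 0.812), which was named after its values were seen. Cdkn2d was also under 1 among ribosome-rich (0.532) and among ribosome-poor cells (0.474), while Cdkn2c went from 4.82 to 0.780. Of 13 measured E2F, DREAM and MuvB genes 4 were higher and 0 lower, with Mybl2, which joins MuvB to switch G2/M genes on, at 4.65 from 16 against 7 UMIs and Tfdp2, an E2F partner, at 2.35. The other 2 were E2f5, at 1.90, and E2f6, at 1.95, of which the second was named after its values were seen.

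The identity of the cycling cells was checked by markers. The list of 10 holds genes of all T cells (Cd3d, Cd3e, Cd3g, Cd4) beside Treg genes, and all 40 and 34 cycling cells had 5 or more of its UMIs, with a minimum of 13 in PPARg-low and 9 in PPARg-negative. Much of this came from the Cd3 genes, as with Cd3g at 325 and 199 UMIs. Foxp3 had 5 UMIs in the PPARg-low and 1 in the PPARg-negative cycling cells, too few to place it above or below the other cells. In PPARg-low, CPM in cycling over other cells was 0.464 (0.268 to 0.752) for Il2ra, 0.560 for Ikzf2, 0.508 for Tnfrsf18 and 0.457 for Izumo1r. The genes of all T cells were lower there too, with intervals under 1: Cd3d at 0.699, Cd3e at 0.768, Cd3g at 0.737 and Cd4 at 0.584. In PPARg-negative the ratios of these Treg genes were 0.650, 0.895, 1.01 and 0.824. Those of the genes of all T cells were 0.950, 0.955, 0.903 and 1.02. Ctla4 stood at 0.926 in PPARg-low and 1.99 in PPARg-negative. Whether the cycling cells hold fewer Tregs was not tested. B cell markers summed to 9 and 10 UMIs there, all from Cd79b, with 5 of 6 markers at 0, Cd79a among them, and at most 3 UMIs in any cell. Markers of plasma cells (3 genes), dendritic cells (4) and erythroid cells (6) were at 0 in the cycling cells of both libraries. Myeloid markers gave 1 and 0 UMIs, CD8 T cell markers 8 and 3, all from Cd8b1 with Cd8a at 0, and NK cell markers 4 and 1, all from Klrb1c. CPM in cycling over other cells was 1.40 (0.619 to 2.79) and 2.48 (1.16 to 4.71) for Cd79b. For Cd8b1 it was 1.28 and 0.629, with intervals that included 1. For Klrb1c it was 7.38 (1.585 to 29.0) and 5.035 (0.1095 to 41.5), and 3 of its 4 PPARg-low UMIs lay in 1 cell.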

How the data were processed

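Tregs of both sorts were counted by the authors, who deposited matrices of raw UMI counts (Chromium 3′ v2 chemistry, per the labels' protocols; Cell Ranger 2.1.0 and mm10, per the submitters' processing notes). Which annotation and which cell calling were used is not given in the sources used here. Deposited libraries held 1992 (PPARg-low) and 2902 (PPARg-negative) barcodes with 3227201 and 6114403 UMIs. Cells over 10% mitochondrial UMIs or under 200 genes were left out (373 and 269). UMIs were summed per library and scaled to CPM, and ratios have exact conditional binomial 95% intervals; shares have exact Clopper-Pearson intervals. The ratio, its interval and the call were checked on counts simulated independently for each gene. Filters, cell shares and cell classes were not, and neither were UMIs gathered in few cells. There the ratio intervals, which treat UMIs of 1 cell as independent, can be too narrow. Scrublet, as in scanpy 1.11.5, marked doublets, which were kept. Python 3.11.15, numpy 2.4.6, scipy 1.17.1 and pandas 2.3.3 were used. Promoter windows came from RefSeq, for 16 of 19 S genes, 22 of 27 G2/M genes and 2 of 3 G1 cyclins. For 34 members the window met the start of a GENCODE transcript on its strand. Full values are given for the S and G2/M members with the most UMIs or the intervals farthest from 1, and for Mki67, Top2a, Pcna, Mcm2 and the G1 cyclins; other members appear by role. The members, lists and cell limits were chosen with earlier results of these data known. Chance tests and set tests were not run.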

Additional observations from a re-analysis of the deposited data

How the results depend on the processing

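Direction and call were recomputed with 1 choice changed at a time, except that thinning also lowered the class limit and that ribosomal class and removal of cycling cells were combined as well. Of 142 recomputed counts, medians and cell shares, 120 stayed close to the reported value, 21 moved and 1 reversed, and of 254 member ratios 175 stayed, 71 moved and 8 reversed. Relative to the median of all genes, 7 S and 10 G2/M genes were higher, and with CPM taken outside ribosomal and mitochondrial genes 7 S genes were. In ribosome-poor cells 5 S and 0 G2/M genes were higher and 7 G2/M genes lower, with a G2/M median log2 ratio of -0.56. There the log2 ratios of Rrm2 (-0.15), Stmn1 (-0.74), Cks2 (-0.052), Top2a (-0.60), Ccna2 (-0.17) and Mki67 (-0.38) were negative. Without cycling cells 3 S genes (median log2 ratio 0.26) and 8 G2/M genes were higher, and Stmn1 stood at -0.082. Both choices together, added after seeing the data, left 5 S and 6 G2/M genes higher in ribosome-rich cells, with Stmn1 at -0.20, and 2 S (median 0.26) and 0 G2/M genes in ribosome-poor cells, where the G2/M median became 0.35. S-rich cells made up 7.97% and 6.19% with a limit of 3 UMIs from 2 genes, and 1.17% and 0.456% with 10 UMIs from 5 genes. Thinned to 750 UMIs with a limit of 3 UMIs from 2 genes, S-rich PPARg-negative cells made up 0.501% and G2/M-rich PPARg-low cells 0.797%. At a mitochondrial limit of 5%, G2/M-rich PPARg-negative cells made up 0.281%. The cause was not tested. No paired analysis was possible because each group is 1 library.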

Other observations

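Genes outside the lists were also read in the cycling cells. Of 2275 genes with 10 or more UMIs in cycling cells of each library, 186 were higher there than in other cells of both libraries. Higher meant at least 1.5-fold in CPM with intervals above 1, and 51 were lower in both. Cycling cells held 7.18% and 3.20% of all UMIs, so genes with few UMIs passed this filter only where they were high in these cells. The filter therefore shaped the counts of 186 and 51, which are a description and test nothing. The gene with the highest bound was 2810417H13Rik, which encodes a factor that binds PCNA, with 92 UMIs in cycling and 20 in other cells of PPARg-low and 67 and 17 in PPARg-negative. Others among the 12 highest were Asf1b, a histone chaperone, at 19.6-fold and Fbxo5, an inhibitor of the anaphase-promoting complex, at 22.0-fold in PPARg-low. Spc24, a kinetochore subunit, stood at 10.2-fold, Lmnb1 (lamin B1) at 7.57-fold and Kif22, a chromosome motor, at 12.2-fold. Tuba1b, an alpha tubulin that resting cells express as well, was 6.30-fold higher in PPARg-low and 4.49-fold higher in PPARg-negative cycling cells. Tcf19, Knstrn, Hmgn2, Haus4 and Prdx4 completed the 12.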
